A study of Mus musculus with 6 samples.

Results

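A set of 9 genes builds the elastic, thin-filament and Z-disc framework of the sarcomere: Ttn, Neb, Nrap, Actn2, Flnc, Myoz1, Myot, Ldb3 and Tcap. Their H3K27ac peaks were all peaks that the deposited annotation assigned to one of these genes, which is the gene with the nearest transcription start. Of 87709 peaks in both tables, 89 were assigned to the 9 genes, 44 of 46988 in the control table and 45 of 40721 in the detrained table. Quadriceps muscle of wild-type male mice, C57BL/6 in the labels of the H3K27ac libraries and C57BL/6J in the study's methods, was profiled by ChIP-seq for acetylated lysine 27 of histone H3 (H3K27ac), with 2 H3K27ac libraries and 1 input library per group. All mice were caged singly from 8 weeks of age for 4 weeks. Control mice had no wheel. Detrained mice had a running wheel, used of their own accord, for those 4 weeks, and then 72 hours of rest before the muscle was taken. Chromatin was precipitated with the same antibody in both groups, from Active Motif. The labels give the strain of the inputs as C57BL/7 in control and C57BL/8 in detrained mice.

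H3K27ac lies on the nucleosomes beside active promoters and enhancers, and long stretches of it mark genes that a cell type uses heavily. In striated muscle the sarcomere is bounded by Z-discs, in which alpha-actinin ties together the actin filaments of neighbouring sarcomeres. Titin runs as a spring from the Z-disc to the M-band, nebulin lies along the actin filament, and smaller proteins such as telethonin, myotilin, calsarcin and ZASP fasten these filaments to alpha-actinin and filamin and carry signals of stretch.

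Total tags were 22400894 and 21796628 in control libraries C2 and C3 and 20805019 and 22350779 in detrained libraries Ex1 and Ex2, and 44.7% to 49.4% of them lay in listed peaks. Library C3 stood above C2 at the 9 genes before any comparison between groups. Its density was higher than that of C2 in all 9 genes, by a median of 0.344 on the log2 scale, against 0.057 over the 13524 genes with peaks in both tables. For the 9 genes, counts of start peaks, shared peaks, genes and domains whose groups do not overlap are therefore given below with and without C3, and without C2. Of 10 markers of the skeletal muscle fibre, 9 had a listed peak in both tables, and Tnnt3 had none assigned. Summed tags of these markers were 6753 and 8495 in control and 8789 and 8265 in detrained libraries. Markers of other cell types were also acetylated, and the sums of 3 such lists were higher in both detrained libraries than in both control libraries. The 4 immune markers summed to 50.7 and 48.4 tags in control and 159.8 and 129.5 in detrained libraries, with Cd68 at 0 in both tables and Ptprc at 0 in control. The 3 fibroblast markers, all with peaks, summed to 1578 and 1557 in control and 1838 and 1913 in detrained libraries. The 3 satellite cell markers, with Calcr at 0, summed to 178.9 and 173.2 in control and 227.4 and 246.2 in detrained libraries. The groups overlapped in the other lists. All 4 endothelial markers had peaks, with sums of 2150 to 2790 tags over the 4 libraries. Of 3 adipocyte markers, Fabp4 had peaks, at 371.4 to 598.2 tags, and Adipoq and Plin1 had none. Of 2 hepatocyte markers, Apoa1 had peaks, at 356.5 to 395.7 tags, and Alb had none. The cardiac markers Nppa, Myl7 and Myh6 had none. The part of other cell types in the values below was not tested, and in whole muscle a change in the share of nuclei of one type and a change of acetylation per nucleus cannot be told apart.

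The promoters that these peaks cover are shown first. RefSeq promoter windows of the GRCm38.p6 assembly, from 250 bases before to 50 bases after the start, were matched for 5 of the 9 genes (Ttn, Nrap, Ldb3, Flnc and Actn2), and windows for Neb, Myoz1, Myot and Tcap were not used here. The 5 genes had 7 windows, of which 1 per gene is shown, and each lay whole within a listed peak of both tables. Capitals mark matches to CATTCC (the MCAT element, bound by TEAD factors), CAGCTG (an E-box form favoured by myogenic factors), the MEF2 site and the CArG box, the site of serum response factor. They were searched on both strands together with the plain E-box CANNTG, of which CAGCTG is one form, and the TATA box TATAAA, both left in lower case.
Ttn, chr2:76982498-76982797, minus strand: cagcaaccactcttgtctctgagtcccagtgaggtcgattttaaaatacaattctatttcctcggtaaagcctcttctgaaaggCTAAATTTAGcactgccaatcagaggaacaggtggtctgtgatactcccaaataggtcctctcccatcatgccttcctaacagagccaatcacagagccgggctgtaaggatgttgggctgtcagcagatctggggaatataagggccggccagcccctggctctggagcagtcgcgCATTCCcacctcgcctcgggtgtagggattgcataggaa
Nrap, chr19:56389989-56390288, minus strand: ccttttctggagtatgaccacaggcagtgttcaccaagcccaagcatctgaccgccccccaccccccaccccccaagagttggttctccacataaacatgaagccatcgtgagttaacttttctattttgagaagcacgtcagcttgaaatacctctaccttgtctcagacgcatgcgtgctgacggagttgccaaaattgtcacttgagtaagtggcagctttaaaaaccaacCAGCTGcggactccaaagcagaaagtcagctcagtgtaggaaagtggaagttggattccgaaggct
Ldb3, chr14:34588632-34588931, minus strand: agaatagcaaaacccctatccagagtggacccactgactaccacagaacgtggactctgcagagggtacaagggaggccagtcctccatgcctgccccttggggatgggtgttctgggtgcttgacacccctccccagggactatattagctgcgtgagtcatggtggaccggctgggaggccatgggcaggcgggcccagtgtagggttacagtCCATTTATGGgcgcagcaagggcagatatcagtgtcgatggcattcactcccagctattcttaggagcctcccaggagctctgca
Flnc, chr6:29432903-29433202, plus strand: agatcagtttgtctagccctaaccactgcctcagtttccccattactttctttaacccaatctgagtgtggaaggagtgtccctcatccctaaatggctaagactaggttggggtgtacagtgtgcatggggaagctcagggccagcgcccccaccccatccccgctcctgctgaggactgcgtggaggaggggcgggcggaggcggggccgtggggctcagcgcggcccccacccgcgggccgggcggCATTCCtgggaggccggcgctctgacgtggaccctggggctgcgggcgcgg
Actn2, chr13:12340683-12340982, minus strand: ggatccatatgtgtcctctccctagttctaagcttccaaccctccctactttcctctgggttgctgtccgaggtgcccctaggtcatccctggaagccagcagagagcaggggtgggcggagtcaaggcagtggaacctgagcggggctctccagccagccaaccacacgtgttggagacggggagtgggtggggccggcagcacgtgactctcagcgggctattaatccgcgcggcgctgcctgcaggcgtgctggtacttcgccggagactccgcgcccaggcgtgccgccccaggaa

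None of these motifs was found in all 5 genes. The Ttn window held a MEF2 match starting 166 bases before the start, a plain E-box 138 bases before it, and an MCAT element from base 12 counted from the start. In the Ldb3 window the CArG box began 35 bases before the start, and in the Nrap window the CAGCTG E-box began 16 bases before it. Further plain E-boxes of the Nrap window began 206 and 48 bases before the start. Flnc carried 1 MCAT element, beginning 1 base before the start, and Actn2 carried 3 plain E-boxes and none of the capitalised motifs. TATAAA was found in none of the 5 genes. Among 32851 RefSeq promoter windows of the same length, 72.3% held an E-box, 16.3% CAGCTG, 14.7% MCAT, 13.6% TATAAA, 3.19% a MEF2 match and 1.63% a CArG box. A match describes these letters only.

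All 9 genes carried H3K27ac in both groups, and the mark was of nearly the same extent in total. Listed peaks of the 9 genes covered 182.0 kb in control and 182.1 kb in detrained muscle, and held 11290 and 11420 pooled tags per 10000000 total tags. A gene's pooled tags are the tags of both libraries of a group in all its peaks. Ranked by this sum, Myot stood at 135 of 14784 genes in control and 110 of 14382 in detrained muscle, Ttn at 243 and 256, and Neb at 430 and 399. Ldb3 was at rank 574 and 672, Flnc at 930 and 805, Tcap at 1073 and 1088 and Myoz1 at 1344 and 1132. Nrap and Actn2 ranked lowest of the 9, at 1999 and 2399 in control muscle and at 1773 and 1280 in detrained muscle. Even Actn2, with 537.1 pooled tags in control muscle, was above the median gene of that table, at 162.2 tags. Peaks of 10 kb or longer made up 13.6% (6 of 44) of the members' control peaks and 8.89% (4 of 45) of their detrained peaks, against 1.4% and 1.57% of all peaks.

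**Figure D1:**
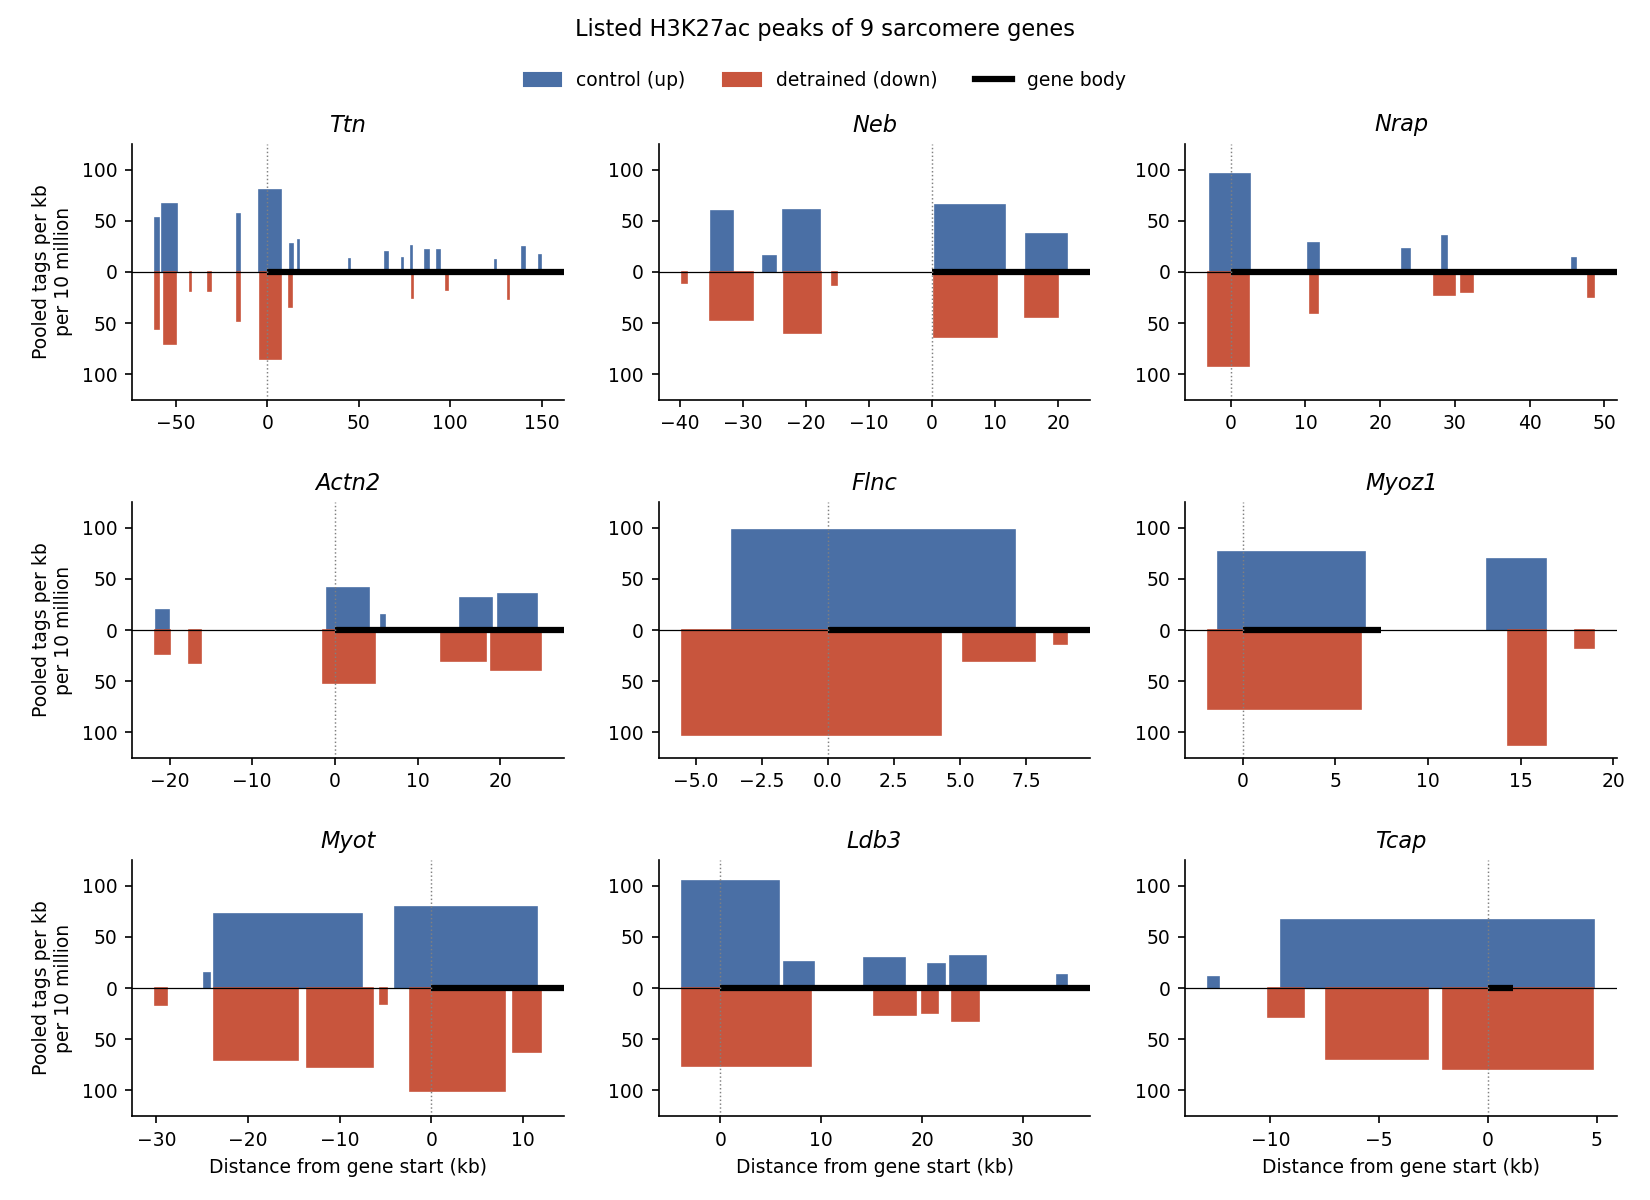
Listed H3K27ac peaks of each gene by distance from the gene start in kb, with control peaks drawn upward and detrained peaks downward; bar width is the peak's length, bar height the pooled tags per kb per 10000000 total tags, and the black line the gene body, cut off at the panel's edge. The densest bar crosses or adjoins the start in most panels, and Ttn shows many low bars inside the gene in control muscle.

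The map of listed peaks shows that the strongest mark lay over the start in most of the genes. A peak spanned the start in 8 of the 9 genes in each table. In Neb the nearest peak began just inside the gene, 405 bp downstream of the start in control and 252 bp downstream in detrained muscle. The start-spanning peaks had a median density of 79.8 pooled tags per kb in control and 81.8 in detrained muscle, whereas the members' other peaks had medians of 25.3 and 30.2, near the 27.5 and 30.1 of all peaks. The start-spanning peak was the densest of its gene in 8 genes in control and 7 in detrained muscle. By the deposited annotation, which uses the centre of a peak, 27 of the 44 control peaks were intronic, 8 intergenic, 6 exonic, 2 promoter and 1 at a transcription end. Of the 45 detrained peaks, 23 were intronic, 13 intergenic, 5 exonic, 2 promoter, 1 at a transcription end and 1 in a 5' UTR.

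At the peak nearest each gene's start, density was of similar size in both groups. The median log2 ratio of detrained to control over the 9 genes was 0.06, beside -0.02 over 13524 genes. Both detrained libraries lay above both control libraries in 3 of the 9 genes (Actn2, Myot and Tcap), where 26.6% of all genes did, and below both in 1 (Ldb3), where 30.4% did. Without C3, 8 of the 9 start peaks were higher and 1 lower, against 38.9% and 39.8% of all genes. Without C2, 3 were higher and 5 lower, against 35.1% and 43.4%. The tables were normalised separately and hold 2 libraries per group, so no test between groups was made, and an exact permutation test could give no two-sided p below 0.333. Called length differed at several starts, and in tags per peak the median ratio of the 9 start peaks was -0.06.

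Titin, the spring of the sarcomere, lies on the minus strand of chr2:76703980-76982557 (mm10) and had the most listed peaks, 15 in control and 10 in detrained muscle. Its start peak covered 12300 bp in control and 11610 bp in detrained muscle, and its tags were 816.9 and 1153 in the control libraries and 974.6 and 998.0 in the detrained libraries. The detrained libraries lay between the control libraries. In density this peak stood at 66.4 and 93.7 tags per kb in control and 83.9 and 86.0 in detrained libraries, 1.08-fold higher on average with overlapping groups. Upstream of titin, 2 control peaks and 4 detrained peaks assigned to Ttn lay within the neighbouring gene Ccdc141, the largest of them at -57.5 to -49.6 kb from the titin start. Its tags were 456.8 and 588.4 in control and 450.3 and 498.6 in detrained libraries, and the groups overlapped.

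Inside the 278578 bp of titin, downstream of the start peak, the number of listed peaks differed. Control muscle had 11 such peaks and detrained muscle 4. They were weak, with 5.88 to 50 pooled tags in control and 16.0 to 68.6 in detrained muscle, and together held 13.3% of titin's control tags and 6.45% of its detrained tags. Of the 11 control peaks 9 overlapped no detrained peak, where 27.9% of all control peaks did not, and of the 4 detrained peaks 2 overlapped no control peak, where 18.0% of all detrained peaks did not. The control table is the longer one, and when it was cut to the number of peaks in the detrained table, by density, the 9 genes kept 36 of their 44 control peaks. With a stricter threshold over input they kept 24 in control and 31 in detrained muscle. How many of titin's own peaks were kept was not counted. Both shares over all peaks take in peaks of every strength, whereas these were weak. The remaining 2 regions inside titin were listed in both tables. The one 11.6 to 14 kb into the gene held 47.1 and 53.0 tags in control and 65.1 and 71.8 in detrained libraries, 1.37-fold higher without overlap, and its density was 1.22-fold higher, also without overlap. The one 78.4 to 79.5 kb into the gene held 20 and 24.9 tags in control and 16.3 and 15.7 in detrained libraries, lower without overlap, with a ratio of 0.721. It was called at 882 bp in control and 633 bp in detrained muscle, and its density overlapped, at 22.7 and 28.2 tags per kb in control and 25.7 and 24.9 in detrained libraries.

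Nebulin, which runs along the thin filament, lies on the minus strand of chr2:52136640-52338798 and had 5 peaks in control and 6 in detrained muscle. The peak nearest its start held 650.3 and 798.9 tags in control and 670.7 and 611.8 in detrained libraries, and the groups overlapped. Its shared peak farthest upstream, at -35.2 to -28.4 kb from the start, was called at very different lengths, 3448 bp in control muscle and 6762 bp in detrained muscle. Tags there were 189.1 and 224.6 in control and 290.8 and 338.7 in detrained libraries, 1.52-fold higher, while tags per kb were 54.8 and 65.1 against 43.0 and 50.1, a ratio of 0.776. The direction at this peak depended on whether its longer called length was divided out. The intronic peak 14.8 to 21.4 kb into the gene went the other way, with 1.21-fold higher density without overlap and 0.992 times the tags.

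Nrap, the nebulin-related anchoring protein of myofibril assembly and the muscle ends, lies at chr19:56320037-56390062 and had 5 peaks in each table. The promoter printed above lay in a start peak whose length was 5410 bp in control muscle and 5382 bp in detrained muscle, with 450.2 and 589.7 tags in control and 528.3 and 459.4 in detrained libraries. The groups overlapped, and density there was 0.961 times control. At 2 small intronic regions the values stood apart. The peak about 11 kb into the gene stood at 26.7 and 30.3 tags per kb in control and 45.7 and 34.2 in detrained libraries, 1.39-fold higher without overlap, and was called at 1428 bp and 1080 bp, and its tags had a ratio of 1.05 and overlapped. The region 27.2 to 30.0 kb into the gene held 18.8 and 26.1 tags in control and 53.7 and 74.0 in detrained libraries, 2.83-fold higher, but was listed at 639 bp in control and 2811 bp in detrained muscle. Tags per kb of that region were 29.5 and 40.8 in control and 19.1 and 26.3 in detrained libraries, so its direction turned with length.

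Actn2, which encodes the alpha-actinin that cross-links actin at the Z-disc, had more tags in both detrained libraries at each of its 3 regions listed in both tables. The gene lies on the minus strand of chr13:12269426-12340732. Its start peak held 188.3 and 233.1 tags in control and 381.5 and 289.6 in detrained libraries, 1.59-fold higher in detrained muscle without overlap. The called length was also greater, at 5155 bp in control muscle and 6388 bp in detrained muscle. Tags per kb were 36.5 and 45.2 in control and 59.7 and 45.3 in detrained libraries, 1.28-fold higher, and Ex2 stood barely above C3.

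The intronic region of Actn2 12.9 to 24.9 kb into the gene was made of 2 peaks in each table, with 242.6 and 334.3 tags in control and 402.9 and 383.8 in detrained libraries, 1.38-fold higher. The intergenic region at -21.7 to -19.9 kb held 36.8 and 25.8 tags in control and 47.2 and 40.2 in detrained libraries, 1.41-fold higher. Per kb, the start peak was the 1 Actn2 peak of 4 shared peaks without overlap. Summed over its 3 regions, Actn2 had 467.7 and 593.2 tags in control and 831.6 and 713.6 in detrained libraries, 1.46-fold higher (1.65-fold without C3 and 1.30-fold without C2). Both detrained libraries lay above both control libraries, which no other of the 9 genes showed in this sum. The share of all genes in such a sum was not computed, and in tags of all listed peaks 24.3% of all genes were higher. Over all listed peaks of Actn2 the difference in density was 1.16-fold with overlapping groups, over a listed length of 16.0 kb in control and 21 kb in detrained muscle. Of the 9 genes, Actn2 also had the lowest density in each table.

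Flnc, the filamin of muscle that cross-links actin at Z-discs and the cell membrane, had the highest mean density of the 9 genes in both tables. It lies on the plus strand of chr6:29433153-29461889. One control peak of 10707 bp covered its start, and 2 detrained peaks of 9820 and 2745 bp covered the same domain. That domain held 979.1 and 1124 tags in control and 1139 and 1043 in detrained libraries, so the groups overlapped. Over all listed peaks, density was 91.5 and 105.0 tags per kb in control and 87.7 and 80.4 in detrained libraries, lower without overlap, with a ratio of 0.857. The start peak alone went the other way, at 1.05-fold with overlap. The gene's other 2 detrained peaks were weaker, at 30.7 and 13.9 pooled tags per kb, and entered its listed length, whereas the control table has 1 broad peak.

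Myoz1, which encodes calsarcin 2, a calcineurin-binding Z-disc protein of fast fibres, lies on the minus strand of chr14:20649102-20656540. Its start peak held 534.5 and 674.2 tags in control and 660.5 and 623.2 in detrained libraries, with overlapping groups. A second peak, 13.2 to 16.4 kb downstream of the start and within the neighbouring gene Usp54, gave the highest density ratio among the members' shared peaks. Its density was 63.0 and 75.6 tags per kb in control and 116.0 and 109.1 in detrained libraries, 1.63-fold higher without overlap. It was called at 3181 bp in control and 2038 bp in detrained muscle, and its tags were 200.2 and 240.5 against 236.5 and 222.4, which overlapped.

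Myot encodes myotilin, which binds alpha-actinin and filamin, and lies on chromosome 18. It had the most tags of the 9 genes, in a start domain and an upstream domain at -23.7 to -6.4 kb. The upstream domain was 1 peak in control (16131 bp) and 2 peaks in detrained muscle (9217 and 7176 bp), with 1023 and 1325 tags in control and 1262 and 1140 in detrained libraries. The start domain held 1087 and 1390 tags in control and 1248 and 1199 in detrained libraries. Both domains overlapped between groups. The control peak at the start was 15506 bp long and the detrained peak that shared it 10333 bp, and the density of this pair was 70.1 and 89.7 tags per kb in control against 101.5 and 99.7 in detrained libraries, 1.27-fold higher without overlap, whereas tags per peak were lower without overlap, with a ratio of 0.846.

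Ldb3 encodes ZASP, also called Cypher, a PDZ and LIM protein that binds alpha-actinin, and lies on the minus strand of chr14:34526699-34590314. Its start peak showed the lowest density ratio of the members' shared peaks. Density there was 88.2 and 121.3 tags per kb in control and 76.0 and 75.7 in detrained libraries, a ratio of 0.733 without overlap. The detrained peak, of 12767 bp, took in the control peak of 9603 bp and a weaker control peak beside it. Tags in the joined domain were 918.6 and 1242 in control and 970.6 and 965.8 in detrained libraries, which overlapped. The domain 22.8 to 26.4 kb into the gene was lower in tags, with 103.5 and 120.7 in control and 88.8 and 83.8 in detrained libraries, without overlap, while its density was 1.03-fold and overlapped.

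Tcap encodes telethonin, which caps the ends of titin at the Z-disc, and its gene at chr11:98383811-98384953 is only 1143 bp long. One control peak of 14378 bp ran across it and across Stard3, Pnmt and Pgap3, and 3 detrained peaks of 1673, 4708 and 6876 bp covered the same domain. Tags of the domain were 853.3 and 1064 in control and 902.4 and 922.9 in detrained libraries, and the groups overlapped. The mark there cannot be assigned to telethonin alone, because 4 genes share the domain. The part at the start was denser than the whole control peak, at 79.8 and 77.4 tags per kb in detrained libraries against 59.4 and 74.0. This pair is of unequal length, and its tags went the other way, at 549.0 and 532.4 in detrained against 853.3 and 1064 in control libraries, a ratio of 0.567 without overlap.

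Across the members, a control and a detrained peak were treated as shared when each overlapped no other peak to that degree and 50% or more of either lay in the other. There were 24 such shared peaks among the 9 genes and 26436 in all. Density was higher in both detrained libraries than in both control libraries at 6 of the 24, against 21.3% of all shared peaks, and lower at 2, against 27.2%. The groups overlapped at the other 16. The median log2 ratio of the 24 was 0.05, with a range from -0.45 at the Ldb3 start to 0.71 at the distal Myoz1 peak, and that of all shared peaks was -0.03. In tags per peak the medians were 0.01 and -0.02. The middle 90% of all shared peaks, from the 5th to the 95th percentile, ran from -0.46 to 0.40, and 2 of the 24, in Myoz1 and Nrap, lay outside it.

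**Figure D2:**
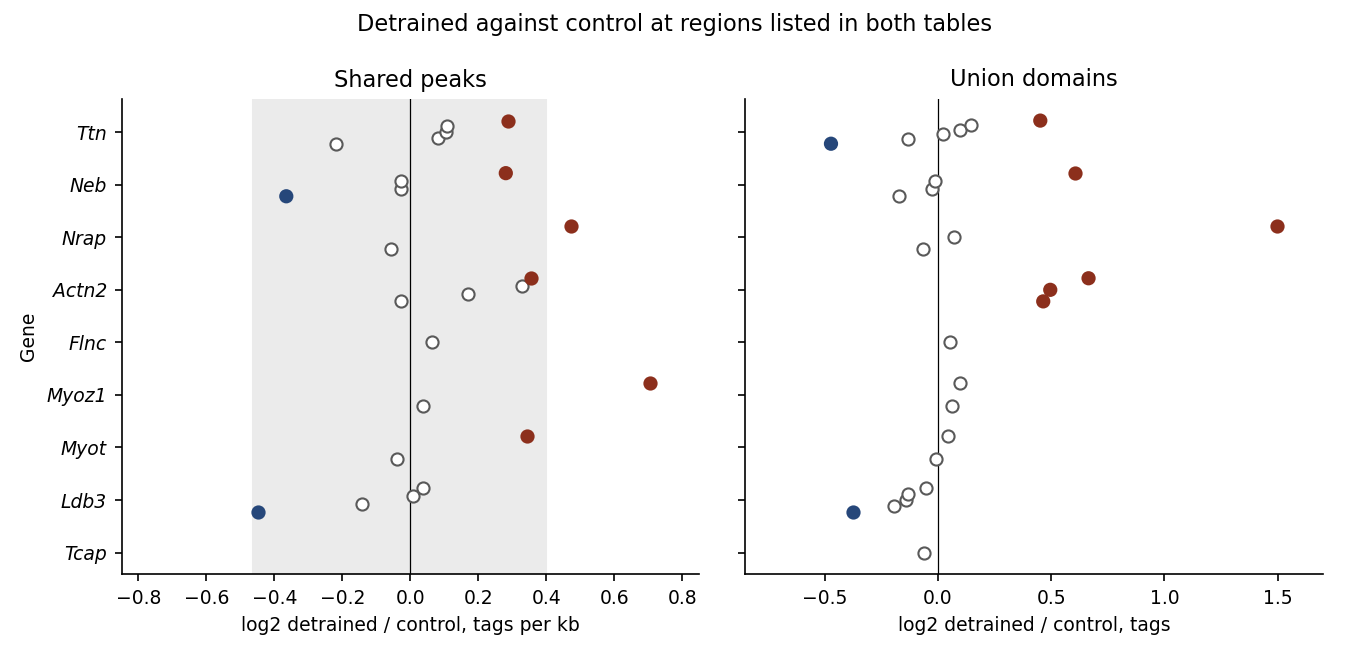
The log2 ratio of detrained to control at each region listed in both tables, by gene, as density of shared peaks at left and as tags of union domains at right. Filled points have both detrained libraries above (red) or below (blue) both control libraries, open points overlap, and the grey band on the left spans the 5th to the 95th percentile of all shared peaks; of the genes plotted on the right, Actn2 alone has all its domains filled.

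These counts turned on both control libraries, C2 and C3. At the 24 shared peaks C3 was above C2 in 22, by a median of 0.32 on the log2 scale, whereas over all shared peaks it was above C2 in 61.3%, by a median of 0.07. The detrained libraries differed by -0.08 at the members (Ex2 minus Ex1) and by -0.06 over all. Without C3, both detrained libraries were higher than the remaining control library at 18 of the 24 peaks and lower at 2, against 38.7% and 36.9% of all shared peaks. Without C2 the counts were 7 higher and 14 lower, against 30.5% and 45.5%. The median log2 ratio was 0.17 without C3 and -0.09 without C2, and its sign depended on which control library was used.

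Summed over all listed peaks of a gene, density was of the same order in both groups in each of the 9 genes. None of the 9 was higher in both detrained libraries, against 25.5% of all genes, and 1, Flnc, was lower, against 28.1%. The median log2 ratio was 0.06 over the 9 genes and -0.01 over 13524 genes, and the members ranged from -0.25 (Nrap) to 0.22 (Actn2). In listed tags, without length, 1 gene was higher (Actn2), against 24.3% of all genes, and none was lower, against 35.2%. In these tags all 9 were higher and 0 lower without C3, against 38.4% and 41.8% of all genes, and 1 was higher and 6 lower without C2, against 30.2% and 51.4%. Without C3, 7 of the 9 genes were higher in density and 1 lower, against 42.4% and 36.4% of all genes. Without C2, 7 were lower and 0 higher, against 44.7% and 33.3%. Flnc was lower under each, and Actn2 was higher without C3 and overlapped without C2.

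**Figure D3:**
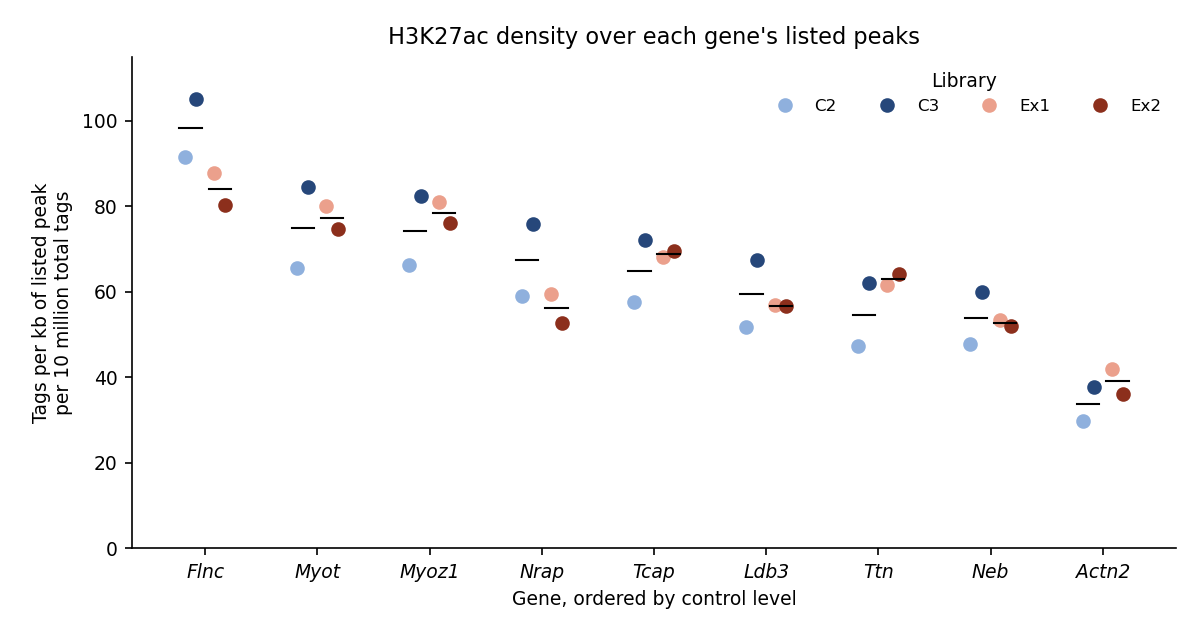
H3K27ac density of each gene in tags per kb of its listed peaks per 10000000 total tags, 1 point per library and a line at the mean of the 2 libraries of a group, with genes in order of the control level. C2 lies below C3 in every gene, and Flnc is the 1 gene in which both detrained libraries lie below both control libraries.

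Within control muscle the order of density was Flnc, Myot, Myoz1, Nrap, Tcap, Ldb3, Ttn, Neb and Actn2. Flnc, at 91.5 and 105.0 tags per kb, stood clear of Myot, at 65.6 and 84.4, and Neb, at 47.9 and 60.0, stood clear of Actn2, at 29.7 and 37.7. From Myot to Neb each gene overlapped the next. Within detrained muscle the order was Flnc, Myoz1, Myot, Tcap, Ttn, Ldb3, Nrap, Neb and Actn2, with Flnc at 87.7 and 80.4 and Actn2 at 41.9 and 36.1. There Myot, Tcap and Ttn each stood clear of the next gene, Neb stood clear of Actn2, and the other neighbours overlapped. Titin stood at place 7 in control and 5 in detrained muscle, with 47.4 and 61.9 tags per kb in control and 61.6 and 64.2 in detrained muscle over listed lengths of 36.2 and 29.4 kb.

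Union domains join overlapping peaks of both tables so that a stretch split in 1 table is compared whole. The members had 55 domains, of which 27 were listed in both tables, 15 in control only and 13 in detrained only. Of the 27, 6 were higher in tags in both detrained libraries, against 28.2% of all 31776 domains listed in both tables, and 2 were lower, against 29.5%. The 6 were the 3 of Actn2 and 1 each of Neb, Nrap and Ttn, and the 2 were in Ldb3 and Ttn. Without C3, 19 of the 27 were higher and 2 lower, against 43.3% and 36.5% of all such domains. Without C2, 6 were higher and 17 lower, against 35.1% and 45.2%. The median log2 ratio was 0.02 for the 27 and -0.01 for all. Summed by gene, Actn2 differed by 0.55 on the log2 scale and the other 8 genes by -0.17 (Ldb3) to 0.09 (Myoz1), all with overlapping groups. The share of all genes whose groups do not overlap in this sum was not computed. One Ldb3 domain, 33.4 to 49.0 kb into the gene, is mostly made of peaks that the annotation assigned to 9230112D13Rik. Without it the sum of the other 4 Ldb3 domains was 1173 and 1534 tags in control and 1205 and 1201 in detrained libraries, a log2 ratio of -0.16.

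**Figure D4:**
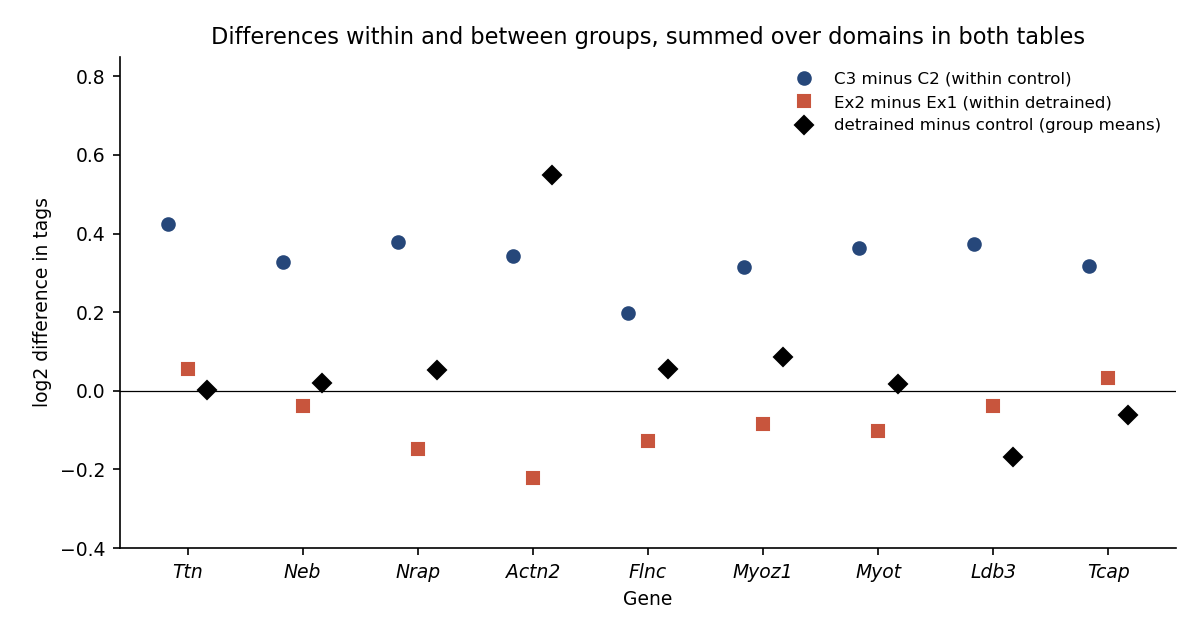
The log2 difference in tags between the 2 control libraries (circles), between the 2 detrained libraries (squares) and between the group means (diamonds), for each gene summed over domains listed in both tables. The difference between groups exceeds that between the control libraries in Actn2 alone, at 0.55 against 0.34.

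Peaks listed in 1 table only were weak. Of the 44 control peaks, 15 (34.1%) overlapped no detrained peak, against 27.9% of all control peaks, and 9 of these lay inside titin. They held 5.66 to 43.0 pooled tags. Of the 45 detrained peaks, 13 (28.9%) overlapped no control peak, against 18.0% of all detrained peaks, and they held 6.95 to 47.5 pooled tags. The strongest of the latter was an intergenic peak of 1462 bp at -17.7 to -16.2 kb from the Actn2 start, with 49.5 and 45.6 tags. None of the start peaks was among them.

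Other genes of the same structures were read from lists by role. Of 24 further Z-disc genes, 23 had peaks in both tables, and in density 4 were higher and 4 lower without overlap, with a median log2 ratio of -0.04, where 25.5% of all genes were higher and 28.1% lower. In tags 5 were higher and 8 lower, where 24.3% and 35.2% of all genes were. Of 11 genes of the thin filament and nebulin partners, 10 had peaks in both tables, with 1 higher, 4 lower and a median of -0.06 in density, and 1 higher and 1 lower in tags. Of 11 titin partners and M-band genes, all had peaks, with 3 higher, 2 lower and a median of -0.06 in density, and 3 higher and 0 lower in tags. C3 was above C2 in 21 of the 23, 10 of the 10 and 11 of the 11 genes, by medians of 0.26, 0.27 and 0.28. Without C3 the density counts of the 3 lists were 12 higher and 5 lower, 5 and 4, and 8 and 2, against 42.4% and 36.4% of all genes. Without C2 they were 5 higher and 16 lower, 1 and 9, and 3 and 7, against 33.3% and 44.7%. Tags in these lists were compared with all libraries only. By the most control tags, Ky, Pdlim5 and Bag3 led the Z-disc list, Capzb, Tmod1 and Acta1 the thin-filament list, and Myom2, Myom1 and Capn3 the titin list. Capzb, which caps the actin filament at the Z-disc, stood at 54.4 and 63.4 tags per kb in control and 51.9 and 50.6 in detrained libraries, lower without overlap, and the other 8 overlapped in density. In tags Capzb overlapped, with a log2 ratio of -0.12, while Ky (-0.32) and Tmod1 (-0.36) were lower and Pdlim5 (0.18) and Myom1 (0.22) higher without overlap.

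The genes whose peak number, listed length and summed tags in both tables, 6 values on the log2 scale, lay nearest to the median member were Nup153, Srsf10 and Igf2r, at distances of 0.255, 0.328 and 0.365. The median member had 5 peaks in each table, 16.0 and 21 kb of listed length and 1050 and 1096 pooled tags in control and detrained muscle. Nup153 had 5 peaks in each table, 16.3 and 17.8 kb and 1107 and 1061 tags.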

How the data were processed

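H3K27ac ChIP-seq tables of 2 control and 2 detrained libraries, with 1 input per group, were used. Reads were aligned by the authors with Bowtie to mm10 (Bowtie 1.2 in the submitters' processing notes). They kept 1 tag per position and used HOMER (version not given in the sources used here) to call peaks once per group on both H3K27ac libraries pooled, against the input, and to assign each peak to the nearest gene. The deposited signal of a peak is its pooled tags per 10000000 total tags. Log2 values of each library were made by the authors with DESeq2 within each table and are shrunken for weak peaks. The authors' log2 fold over input and adjusted p-value per peak served only for stricter lists. Depth was 20805019 to 22400894 tags per H3K27ac library.

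The values used are not counts per library. Tags for a single library were estimated by dividing a peak's pooled tags in proportion to library totals and log2 values, so differences between libraries of weak peaks are understated. Density was (tags + 0.5) per kb on the log2 scale. Printed levels are without the added tags. Peaks called separately differ in length, so tags, density or both are given, each named as such. Shared peaks were one-to-one pairs, each covered to 50% or more, and union domains joined overlapping peaks. A region was counted as higher or lower when both detrained libraries lay beyond both control libraries. Columns C2 and C3 name control libraries that the labels number 1 and 2, so they were assigned to the group only. Per the study's methods, each quadriceps sample was 1 muscle of 1 animal. The spread between libraries of a group therefore mixes differences between animals and between preparations. Input tags were 10812470 and 21298438.

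The named peaks were the nearest to the start, the densest, the longest, and shared peaks at least 1.25-fold apart in density without overlap. Other peaks and domains in the text were chosen after their values were seen. Up to 3 genes per comparison list were named by control tags. The members and lists were chosen with earlier results of these data known. Alternatives covered length, normalization, pseudocount, overlap, a stricter peak list and each library omitted in turn. Scripts were first run on simulated data with unshrunken values and identical peaks in both groups. Shrunken values and unequal peak lengths were not tested in this way. Promoter sequences came from RefSeq (GRCm38.p6). Python 3.11.15, numpy 2.4.6, pandas 2.3.3 and matplotlib 3.10.9 were used.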

Additional observations from a re-analysis of the deposited data

How the results depend on the processing

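With 2 libraries per group and tables normalised separately, no test was made. The number of members' shared peaks higher in both detrained libraries, 6 as reported, was 10 when normalised to tags in listed peaks, 11 with the deposited log2 values as they stand and 1 when 80% coverage was required, and ranged from 7 to 18 without 1 library, the last without C3. The number lower, 2 as reported, was 1 with the deposited log2 values and 0 with 80% covered, and ranged from 2 to 14 without 1 library, the last without C2 (4 without Ex2). Only 11 member peaks met the 80% overlap. The median log2 change of density per gene, 0.055, was 0.264 with the deposited log2 values, under which all shared peaks had a median of 0.209, and ranged from -0.127 to 0.236 without 1 library. The listed peaks, 44 in control and 45 in detrained muscle, numbered 24 and 31 under the stricter threshold and 36 and 45 with equal numbers of peaks per table. The density of Flnc, -0.223 on the log2 scale, became 0.064 in tags without peak length, 0.294 with the deposited log2 values and 0.055 in union domains. Of 99 gene values under an alternative, 83 moved by less than the spread between libraries, 13 by more, and those 3 of Flnc, the 1 gene whose reported groups did not overlap, changed sign. Counting the genes whose groups overlapped as well, 20 values in 8 of the 9 genes had another sign than reported, and Actn2 was the exception. The 83 is no measure of stability. Omitting 1 library could not move a gene by more than the spread between libraries, which is computed from the same library differences. Normalisation to tags in listed peaks shifted all genes alike, by less than the spread of any of the 9. Nrap, at -0.254, became 0.323 with the deposited log2 values and 0.091 in tags, and Neb, at -0.024, became 0.24 with the deposited log2 values. The median ratios of shared peaks and of start peaks moved by less than the spread between libraries in all alternatives run, but without C2 both were below 0, at -0.089 and -0.131, and that of start peaks was also below 0 in tags per peak, at -0.061, and at the 1 gene whose peak the annotation names a promoter in both tables, at -0.057. No paired analysis was possible because C2 and C3 are not the numbers in the control labels and no test between groups was made. Depth was similar across the H3K27ac libraries, but the control input had 10812470 tags and the detrained input 21298438, and its part in which weak peaks were listed was not tested. The causes of the other shifts were not tested.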
